A study of Homo sapiens with 36 samples.

Results

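The windows described here are the stretches of intron, at most 100 nt long, that lie directly next to a 3' splice site. They were found by enhanced crosslinking and immunoprecipitation (eCLIP), which sequences the RNA fragments crosslinked to a chosen protein, and they are the windows whose leading feature type in the authors' annotation is the flank adjacent to a 3' splice site. The tables of enriched windows of 9 RNA-binding proteins were united by window name, which gave 16406 distinct windows of this class among 601384 distinct windows of all classes, or 2.73%. They account for 23423 of the 788098 entries of the 9 tables, because a window can be listed for several proteins. All libraries were made from HEK293T, an established line of embryonic kidney origin that takes up DNA readily, and the labels name no treatment. Each protein (CPSF5, CPSF6, EIF4B, GRB2, LGALS3, MBNL2, RBM10, RBM22 and RNPS1) had 2 immunoprecipitated (IP) and 2 input libraries, 36 in all. Complexes were recovered with an antibody to the protein or to a V5 tag, and the sources used here do not assign these antibodies to proteins. Nothing in the labels ties replicates to separate cultures, and their spread could be purely technical.

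At a 3' splice site the spliceosome first reads a branch point, a pyrimidine-rich tract and a terminal AG. SF1 and the U2AF heterodimer recognise these elements, and the SF3B-containing U2 particle then settles on the branch point. RBM10 is an alternative splicing regulator known for promoting exon skipping, RBM22 belongs to the catalytic spliceosome, RNPS1 is a peripheral factor of the exon junction complex, and CPSF6 and CPSF5 form the cleavage factor CFIm. MBNL2 is a muscleblind regulator of alternative exons, EIF4B is a translation initiation factor, GRB2 is a signalling adaptor and LGALS3 is a galectin.

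The 16406 windows lay in 5465 of the 11302 genes that had any listed window, and 15883 of them (96.8%) were in protein-coding genes. A further 208 were annotated to long noncoding RNAs and 300 to pseudogenes. Of all 16406, 15281 (93.1%) had the full 100 nt and 70 were shorter than 20 nt. The annotation placed 4738 (28.9%) also in the flank of a 5' splice site. Their median GC content was 46%.

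The last 40 nt on the annotated exon side could be read for 73 of these windows, those that fall inside a promoter sequence of RefSeq (GRCh38.p14). The sequences stand 5' to 3' on the transcribed strand, with hg38 positions, and capitals mark the terminal AG. The set is a small and selected one, because it holds introns that end close to an annotated transcription start. Those printed have the most IP reads among the windows with the same combination of lists, and were chosen after their values were seen. First come windows listed for RBM10 alone, then windows shared by RBM10 and RNPS1.
PTTG1IP, RBM10, chr21:44865448-44865487, minus strand: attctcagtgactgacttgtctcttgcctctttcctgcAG
ARID4B, RBM10, chr1:235326969-235327008, minus strand: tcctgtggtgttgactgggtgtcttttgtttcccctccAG
SMARCA4, RBM10, chr19:10984081-10984120, plus strand: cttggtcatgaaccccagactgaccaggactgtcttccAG
MAN2A2, RBM10 and RNPS1, chr15:90903191-90903230, plus strand: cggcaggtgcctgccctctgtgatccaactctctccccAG
DDX55, RBM10 and RNPS1, chr12:123617718-123617757, plus strand: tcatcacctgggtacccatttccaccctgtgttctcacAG

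A second group shows windows of CPSF6, of RNPS1 and of several proteins at once, for comparison with the RBM10 sequences.
FKBP11, CPSF6 and RNPS1, chr12:48925112-48925151, minus strand: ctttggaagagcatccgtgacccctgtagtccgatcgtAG
SELENOO, CPSF6 and RNPS1, chr22:50210141-50210180, plus strand: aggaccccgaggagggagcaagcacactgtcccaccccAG
BRD2, CPSF6, chr6:32971555-32971594, plus strand: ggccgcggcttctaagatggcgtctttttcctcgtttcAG
JMJD4, RNPS1, chr1:227734817-227734856, minus strand: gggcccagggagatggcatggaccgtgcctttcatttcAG
MRPL34, CPSF6, RBM10, RBM22 and RNPS1, chr19:17305791-17305830, plus strand: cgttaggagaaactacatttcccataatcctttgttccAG

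A further group shows windows of EIF4B, MBNL2 and GRB2, then 2 windows that do not end in AG.
CORO1B, EIF4B, chr11:67443466-67443505, minus strand: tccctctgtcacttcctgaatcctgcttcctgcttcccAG
CAST, EIF4B, chr5:96662312-96662351, plus strand: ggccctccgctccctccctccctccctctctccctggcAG
PFN1, EIF4B and MBNL2, chr17:4948556-4948595, minus strand: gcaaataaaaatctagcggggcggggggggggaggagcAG
MGAT4B, MBNL2, chr5:179803031-179803070, minus strand: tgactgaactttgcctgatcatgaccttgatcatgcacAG
ANKRD11, GRB2, chr16:89418369-89418408, minus strand: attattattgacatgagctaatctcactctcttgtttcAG
AURKB, RBM10, RBM22 and RNPS1, chr17:8210255-8210294, minus strand: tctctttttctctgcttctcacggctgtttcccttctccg
TSEN34, EIF4B, chr19:54191268-54191307, plus strand: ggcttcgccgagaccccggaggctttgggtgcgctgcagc

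Of the 73 sequences, 64 (87.7%) ended in AG. For comparison, AG filled 7.17% of all dinucleotide positions, on both strands, of the 35116 RefSeq promoter entries of 300 bases. For the 9 other sequences, the position next to a 3' splice site rests on the annotation alone. By list, AG ended 28 of 30 sequences for RBM10, 22 of 24 for CPSF6, 21 of 23 for RNPS1 and 18 of 24 for EIF4B. The authors' GC value equalled that of the RefSeq sequence, within a fraction of 0.0001, in all 58 windows that could be read whole. The 20 nt before the last pair of bases held a median of 75% pyrimidines, with a range of 10% to 95%. In the 30 sequences of the RBM10 list the median was 80% and the range 55% to 95%. It was 75% in the 24 sequences of CPSF6 (40% to 95%) and in the 23 of RNPS1 (40% to 85%). The 24 sequences of EIF4B had the same median of 75% but ran from 10% to 90%, and their median GC over 40 nt was 61.25% against 47.5% for RBM10. The PFN1 window, in the gene of the actin-binding protein profilin, is the one at 10%, with a run of G close to its end.

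RBM10 held the most windows next to 3' splice sites, although its list was among the shorter ones. Such windows were 9141 of its 28544 (32.0%, 95% exact Clopper-Pearson interval 31.5% to 32.6%), and they drew 26.3% of the IP reads of the list. RNPS1 followed with 6494 of 152730 (4.25%, 4.15% to 4.35%) and CPSF6 with 6359 of 155533 (4.09%, 3.99% to 4.19%). Intervals cover counting error in the number of windows only, and reads are not taken as independent molecules.

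The other 6 lists held few of these windows. EIF4B had 522 of 68716 (0.760%, 0.696% to 0.827%), GRB2 450 of 291116 (0.155%, 0.141% to 0.170%) and MBNL2 265 of 42960 (0.617%, 0.545% to 0.695%). RBM22 had 119 of 8671 (1.37%, 1.14% to 1.64%), CPSF5 65 of 38826 (0.167%, 0.129% to 0.213%) and LGALS3 8 of 1002 (0.798%, 0.345% to 1.57%). CPSF5 and CPSF6, partners in CFIm, thus stood far apart in this class, and so did RBM10 and RBM22. For RBM22 the 5' splice site flank was the fuller one, with 1741 windows directly next to 5' splice sites (20.1% of its list). RBM10 had 1960 windows of that kind (6.87%).

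The same can be read from the side of the windows, as the share of all distinct windows of any class that a protein lists. RBM10 listed 55.7% of the 16406 windows, where it listed 4.75% of all distinct windows. RNPS1 listed 39.6% against 25.4%, and CPSF6 38.8% against 25.9%. In the other lists the share was below that over all windows. It was 3.18% against 11.4% for EIF4B, 2.74% against 48.4% for GRB2 and 1.62% against 7.14% for MBNL2. RBM22 listed 0.725% against 1.44%, CPSF5 0.396% against 6.46% and LGALS3 0.0488% against 0.167%. Of all distinct windows, 285555 were listed for GRB2 alone, against 314 in the class. They lower the all-window share of every other protein, and the excess of RNPS1 and CPSF6 in the class depends on counting them. Library depth is unknown, since the tables hold reads of listed windows only, between 187076 and 13313477 IP reads per protein. A window absent from a list may lack either enrichment or coverage, so lists were set side by side and not tested against each other.

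**Figure D1:**
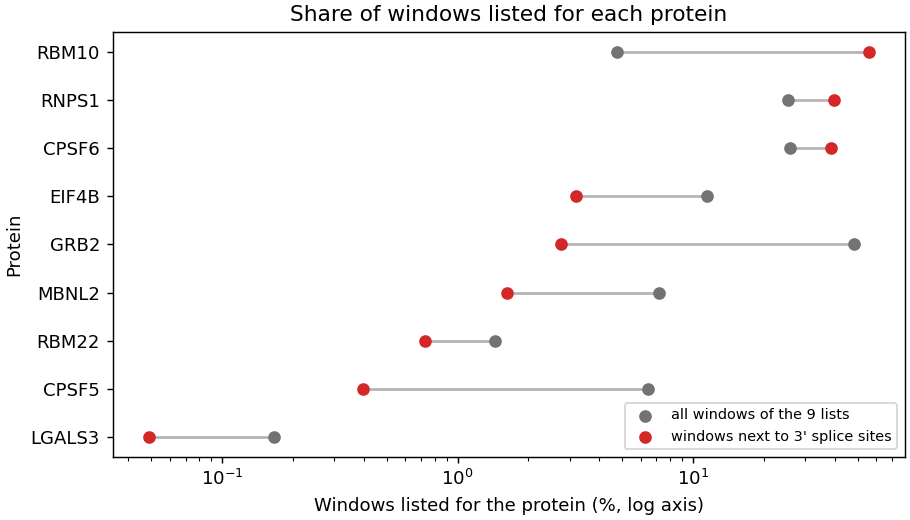
Percentage of distinct windows listed for each protein, on a log axis, among the 16406 windows next to 3' splice sites (red) and among all 601384 windows of the 9 lists (grey). Red lies to the right of grey for RBM10 (55.7% against 4.75%), RNPS1 and CPSF6, and to the left for the other 6 proteins. Of the 16406 windows, 5634 were listed for RBM10 alone. Of the 601384 windows, 285555 were listed for GRB2 alone, which lowers the grey value of every other protein.

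Together RBM10, RNPS1 and CPSF6 listed 15762 of the windows (96.1%), and 1337 were listed for all 3. A window was listed for a single protein in 11197 cases (68.2%), against 77.7% over all windows. It was listed for 2 or more in 5209 cases (31.8%), against 22.3% of all windows. Of the 467133 windows of any class with a single protein, 285555 were listed for GRB2, and the direction of both comparisons depends on counting them. Of the shared windows 3631 had 2 proteins, 1384 had 3, 163 had 4, 27 had 5, 3 had 6 and 1 had 7. The most frequent combination was RBM10 alone with 5634 windows, which is 61.6% of the RBM10 windows of the class, against 53.6% over its whole list. CPSF6 alone followed with 2519 (39.6% against 34.8%) and RNPS1 alone with 2410 (37.1% against 30.5%).

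CPSF6 and RNPS1 shared 2875 windows, 45.2% of those of CPSF6 and 44.3% of those of RNPS1. Over all windows of any class the shares were higher, at 56.3% and 57.3%. RBM10 and RNPS1 shared 2465 windows, 27.0% of those of RBM10 and 37.96% of those of RNPS1, and over all windows the shares were 28.4% and 5.30%. RBM10 and CPSF6 shared 2229 windows, 24.4% and 35.1% of each, against 26.5% and 4.86% over all windows. The share of RBM10 windows that RNPS1 or CPSF6 also listed was thus close to that in the RBM10 list as a whole. Of all windows of the class, RBM10 listed 55.7%, RNPS1 39.6% and CPSF6 38.8%. The shares between RBM10 and either of the others lay below these values, and those between CPSF6 and RNPS1 above them. The class holds only windows listed for at least 1 protein, 5634 of them through RBM10 alone. A share below these values is therefore partly built in and does not show that lists avoid each other.

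The small RBM22 set lay almost wholly inside the other lists, with 7 of its 119 windows (5.88%) listed for RBM22 alone, against 17.7% of its whole list. CPSF6 also listed 91 of them (76.5%), RNPS1 82 (68.9%) and RBM10 81 (68.1%). Over all RBM22 windows those shares were 68.8%, 49.7% and 17.3%, and over all windows of the class 38.8%, 39.6% and 55.7%. GRB2 had 314 of 450 windows (69.8%) to itself, while 98.1% of its whole list was listed for GRB2 alone. RBM10 also listed 99 of the 450 GRB2 windows (22.0%), against 0.453% over the whole GRB2 list. That was below the 55.7% of all windows of the class that RBM10 listed. CPSF6 listed 22 of the 65 windows of its partner CPSF5 (33.8%), against 14.1% over the whole CPSF5 list and 38.8% of the class. Shares of the class also count windows listed for a single protein, so a value below them was not read as avoidance.

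**Figure D2:**
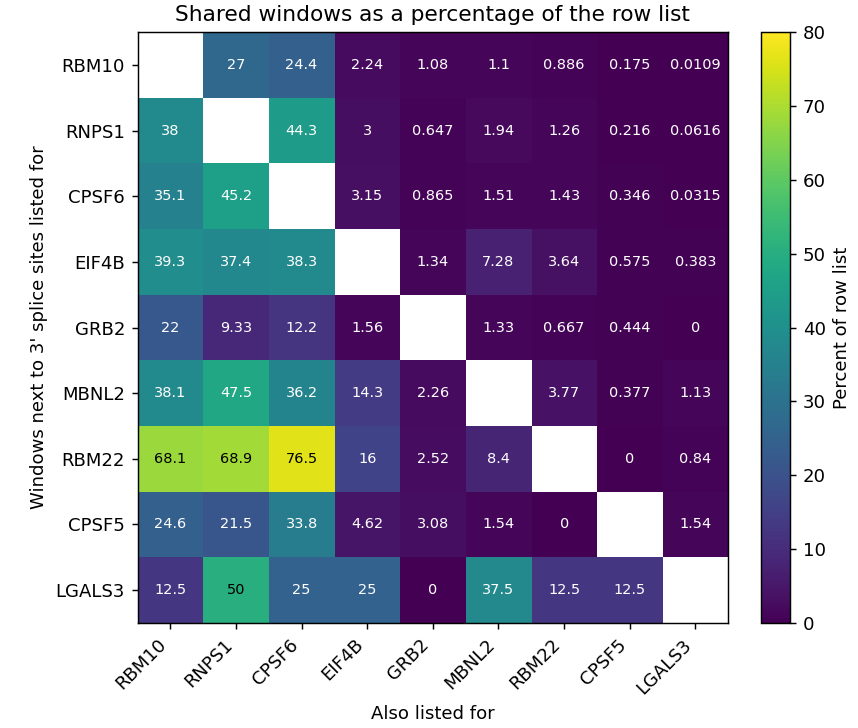
Percentage of the windows next to 3' splice sites of each protein (row) that were also listed for each other protein (column), from 0% to 76.5% for RBM22 windows in the CPSF6 list. The columns of RBM10, RNPS1 and CPSF6 are the bright ones, and rows rest on between 8 windows (LGALS3) and 9141 (RBM10).

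The lists differed widely in what lay on the exon side of the splice site. For RNPS1, 5200 of 6494 windows (80.1%) had a listed RNPS1 window abutting on the exon side, against 40.4% of all RNPS1 windows with a listed window on their 3' side. CPSF6 had 4046 (63.6% against 40.9%) and EIF4B 359 (68.8% against 47.4%). MBNL2 had 138 (52.1% against 28.4%) and LGALS3 5 of 8 (62.5% against 16.3%). In these 5 lists most of the intron windows adjoined a listed exon window.

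RBM10 showed the opposite arrangement. Only 207 of its 9141 windows (2.26%) had a listed RBM10 window in the exon, against 22.8% of all RBM10 windows with one on their 3' side. A listed window abutted on the intron side in 1636 (17.9%, against 22.8% of all RBM10 windows with one on their 5' side), and 7358 (80.5%) had neither neighbour. RBM22 was similar with 8 of 119 on the exon side (6.72% against 19.5%) and 107 (89.9%) without either neighbour. CPSF5 had 8 of 65 on the exon side (12.3% against 49.4%) and 17 on the intron side (26.2% against 49.4%). GRB2 had 127 of 450 on the exon side (28.2% against 67.8%) and 289 (64.2%) on the intron side, the latter close to the 67.8% of all GRB2 windows with a listed window on their 5' side.

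The exon windows next to RBM10 windows were often in other lists. RNPS1 listed 25.4% and CPSF6 25.9% of all distinct windows of any class, 285555 of which were listed for GRB2 alone. That set is unlike the exon windows, and a share over exon windows alone was not computed. In 6070 of the 9141 cases (66.4%) the abutting exon window was listed for RNPS1, in 4214 (46.1%) for CPSF6, and in 6855 (74.99%) for at least 1 of the 9 proteins. These shares were higher at the RNPS1 and CPSF6 windows of the class. RNPS1 listed the exon window of 80.1% of its own and 76.2% of the CPSF6 windows. CPSF6 listed that of 63.6% of its own and 57.2% of the RNPS1 windows. At least 1 protein listed that of 84.4% of the RNPS1 and 83.2% of the CPSF6 windows. Among the 5634 windows listed for RBM10 alone, RNPS1 listed the exon window of 3398 (60.3%) and CPSF6 that of 2221 (39.4%). RBM10 itself listed the exon window of 105 of them (1.86%). In the other direction, RBM10 listed the exon window of 103 of the 6494 RNPS1 windows (1.59%). At windows directly next to 5' splice sites the exon side was listed in 74.7% of cases for RNPS1, 51.1% for CPSF6, 59.3% for EIF4B, 6.79% for RBM10 and 2.13% for RBM22. The shares were again large for the first 3 of these proteins and small for RBM10 and RBM22.

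**Figure D3:**
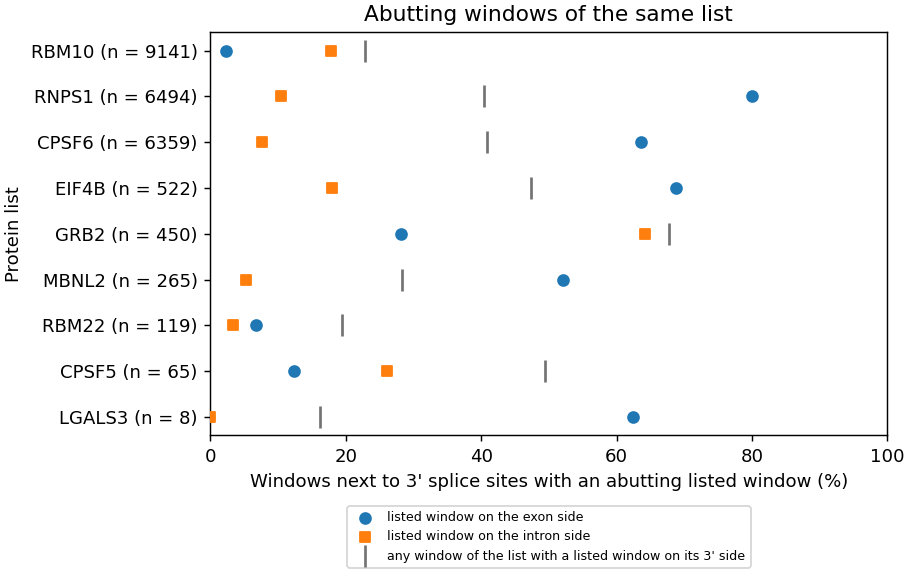
Percentage of windows next to 3' splice sites that abut a listed window of the same protein on the exon side (circles) or on the intron side (squares), with the share of all windows of the list that have a listed window on their 3' side (grey bars). RNPS1 is at 80.1% on the exon side and RBM10 at 2.26%.

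Where both the intron window and its exon neighbour were listed, their enrichment could be set side by side within a list. The enrichment used throughout is the authors' own log2 odds ratio of IP over input per window, given for the lower and the higher of the 2 replicates. The exon was taken as higher where its lower replicate exceeded the higher replicate of the intron window. For RNPS1 the exon was higher in 1440 of 5200 pairs (27.7%), the intron window in 817 (15.7%), and the replicate ranges overlapped in 2943. For CPSF6 the exon was higher in 755 of 4046 pairs, the intron window in 820, and 2471 overlapped. EIF4B leaned to the exon, with 129 against 56 and 174 overlapping. MBNL2 leaned to the intron window, with 86 against 9 and 43 overlapping. RBM10 did so too in its few pairs, with 96 against 10 and 101 overlapping. Median IP reads in the MBNL2 pairs were 15 in the intron window and 73.5 in the exon window. They were 17 and 69 for RNPS1, 21 and 67 for CPSF6, 25 and 135 for EIF4B, and 61 and 46 for RBM10. The lean of MBNL2 was thus one of the odds ratio and not of IP reads. The neighbouring exon windows were coding sequence in 92.5% of the RNPS1 pairs and 90.5% of the CPSF6 pairs, while 39.8% of the EIF4B pairs had a 5' UTR.

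Enrichment in the class was above that of the whole list for RBM10 and MBNL2, and close to it or lower elsewhere. The RBM10 windows had a median log2 enrichment of 3.09 in the lower replicate (quartiles 2.50 and 3.95) and 4.59 in the higher, against a lower-replicate median of 2.77 over the whole list. MBNL2 had 2.83 (2.26 to 3.60) against 2.39. RNPS1 had 2.98 (2.30 to 3.62) against 2.93, and CPSF6 2.50 (2.09 to 3.06) against 2.51. GRB2 had 2.74 (2.13 to 3.54) against 3.38, EIF4B 2.55 against 2.81, CPSF5 2.52 against 2.81, LGALS3 2.41 against 2.39 and RBM22 1.90 against 2.12. In every list the quartile ranges of the class and of the whole list overlapped. Replicates lay apart by a median of 1.05 log2 units in the RBM10 windows, more than the distance between the class and list medians.

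**Figure D4:**
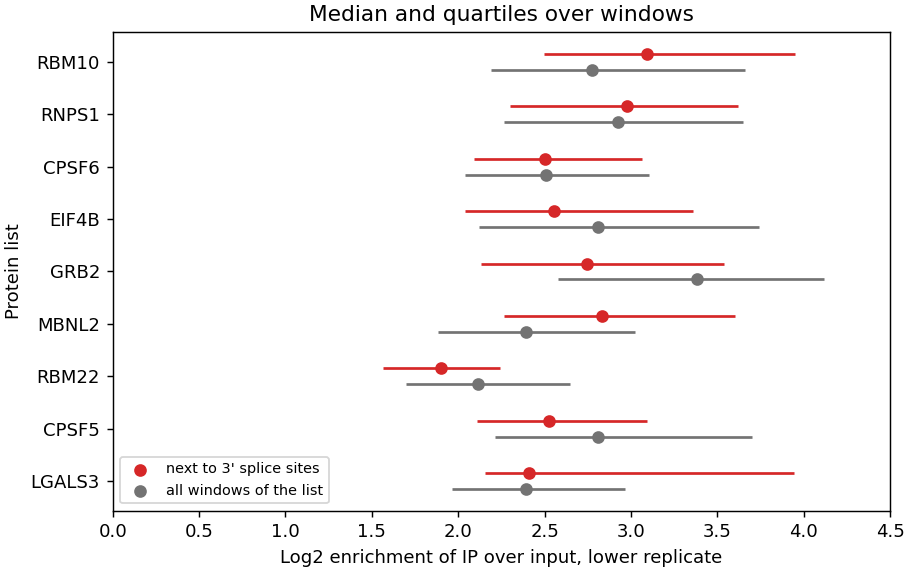
Median (points) and quartiles (lines) of the authors' log2 enrichment in the lower replicate, for windows next to 3' splice sites (red) and all windows of the list (grey). RBM10 (3.09 against 2.77) and MBNL2 (2.83 against 2.39) have the clearest shift upwards, and GRB2 (2.74 against 3.38) the clearest shift downwards. The MBNL2 windows of the class have fewer reads than its list, with a median of 13 IP reads against 24.

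RBM10 windows of the class passed a stricter threshold more often than its list as a whole, and those of RNPS1 and CPSF6 less often. Both replicates had a q-value no higher than 0.05 in 3804 RBM10 windows of the class (41.6%), against 31.5% of its whole list. This held for 3104 RNPS1 windows (47.8% against 63.1%) and for 2403 CPSF6 windows (37.8% against 49.7%). Reads were few in the RNPS1 windows of the class, with medians of 17 IP and 1 input read against 28 and 2 over its list. CPSF6 had 21 and 3 against 31 and 5, and RBM10 43 and 2 against 45 and 2. No input read at all was present in 28.3% of the RNPS1 windows of the class, against 17.0% of its list. It was 17.5% against 15.2% for RBM10 and 8.21% against 5.86% for CPSF6.

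Windows listed for RBM10 alone had a higher ratio but fewer reads than shared ones, and passed the stricter threshold less often. Their median lower-replicate enrichment was 3.22, with 39 IP reads, no input read in 22.8%, and q no higher than 0.05 in both replicates in 39.0%. The 1337 windows shared with both RNPS1 and CPSF6 had a median of 2.83 in the RBM10 list, with 54 IP reads, no input read in 5.31%, and q no higher than 0.05 in both replicates in 50.3%. Of these shared windows 40.2% were also annotated to the flank of a 5' splice site, against 19.8% of those of RBM10 alone. CPSF6-only windows had a median GC of 36%, below the 46% of the windows shared by all 3.

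Composition and annotation to a second flank varied between the lists. Median GC of the windows was 56% for EIF4B and RBM22, 52% for MBNL2, 47% for RBM10 and RNPS1, 44% for GRB2, 41% for CPSF6, 38% for LGALS3 and 31% for CPSF5. The share that also lay in a 5' flank was 51.3% for RBM22, 45.02% for EIF4B, 41.5% for MBNL2 and 40.1% for RNPS1. It was 29.6% for CPSF6, 25.5% for RBM10, 16.9% for CPSF5 and 12.0% for GRB2. Over the whole lists the median GC was 61.8% for EIF4B, 49% for RBM22 and 35.8% for CPSF5. EIF4B and CPSF5 were thus also GC-rich and AT-rich as whole lists, while the RBM22 windows of the class had a higher GC than its list.

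By symbol, 15812 of the 16406 windows (96.4%) could be placed within a RefSeq gene span of the same build. The median position, from 0% at the start of the gene to 100% at its end, was 64.9% for RBM10, 66.5% for CPSF6, 62.7% for RNPS1 and 66.6% for RBM22. EIF4B windows lay further upstream, with a median of 35.8%, and 22.9% of them fell in the first 10% of the gene span, where RBM10 had 3.98%. Over the whole lists those shares were higher, at 41.8% and 6.96%. GRB2 was intermediate at 43.8%. The EIF4B list as a whole also lay upstream, at a median of 21.0%.

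The strongest windows were named by the lower-replicate enrichment among those with at least 20 IP reads. For RBM10 the first was in DTNA (chr18:34858185-34858284), which encodes dystrobrevin alpha, with 278 IP reads, no input read and a log2 enrichment of 7.36 and 8.33 in the lower and higher replicate. The next was in ATP6V0A1, a subunit of the vacuolar proton pump, with 129 IP reads, no input read and 6.88 to 7.35. GRB2 also listed that ATP6V0A1 window, with 52 IP and 7 input reads and 1.81 to 2.89. A window of BTN3A2, a butyrophilin gene (chr6:26375697-26375796), had 285 IP reads, no input read and 6.88 to 8.52.

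The BTN3A2 window was prominent in several lists. EIF4B listed it with 147 IP reads, no input read and a log2 enrichment of 6.91 to 8.76, the third highest of its windows here. RBM22 listed it with 91 IP reads, no input read and 4.60 to 7.70, its highest. CPSF6 listed it with 54 IP and 2 input reads and 2.57 to 6.78. Input was thus at or near 0 in each of the 4 tables, which leaves the ratio imprecise.

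The highest RNPS1 values were in a chaperone, a ribosomal and a nucleolar protein gene. HSP90B1, which encodes a chaperone of the endoplasmic reticulum, had 47 IP reads, no input read and 6.71 to 6.82, and CPSF6 listed the same window at 5.55 to 6.16. RPS6, a protein of the small ribosomal subunit, had 263 IP and 6 input reads and 6.69 to 7.25. NCL, which encodes nucleolin, had 120 IP reads and no input read over a window of only 4 nt, at 6.31 to 6.39. The RPS6 window was listed for 3 further proteins, at a lower-replicate enrichment of 4.60 for MBNL2, 3.52 for RBM10 and 3.42 for CPSF6.

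CPSF6 was strongest in SRRM1, a splicing coactivator gene, with 59 IP and 1 input read and 5.83 to 5.91. ANKRD17 followed with 178 IP and 5 input reads and 5.78 to 7.77, then NBPF20 with 45 IP reads, no input read and 5.75 to 5.83. NBPF20 belongs to a family of near-identical copies, so the assignment of its reads is uncertain. EIF4B was strongest in a pair of ribosomal protein genes. RPS12 had 112 IP and 1 input read over 18 nt, at 7.61 to 9.14, and RPS4X had 163 IP and 4 input reads, at 7.35 to 7.36.

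MBNL2 had its highest value in TNKS2, which encodes a tankyrase, with 20 IP reads, no input read and 7.44 to 8.20. TUBA1B, an alpha tubulin gene, had 22 IP and 3 input reads and 6.10 to 6.23. RBM22 after BTN3A2 had PRPF31, a protein of the tri-snRNP, with 40 IP and 1 input read and 3.38 to 4.86, and ENO1, a glycolytic enzyme, with 38 IP and 3 input reads and 3.31 to 4.52. GRB2 had 171 IP and 1 input read at the BMS1P2 pseudogene locus, at 5.97 to 6.92. FBXW11, a ubiquitin ligase subunit, had 67 IP reads, no input read and 5.95 to 5.999, and the pseudogene USP32P3 had 54, none and 5.29 to 5.97. Pseudogene values are uncertain where parent genes are near-identical.

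CPSF5 was strongest in SLC35F5, a gene of the solute carrier family, with 23 IP reads, no input read and 4.67 to 4.70. OSGIN2 followed with 36 IP and 1 input read and 4.38 to 4.55. Next, in the MIR222HG locus, a window had 66 IP and 4 input reads and 4.36 to 4.79, and it was also listed for CPSF6 at 3.52 and RNPS1 at 2.14 in the lower replicate. Of the 8 LGALS3 windows, the highest were in MBNL2 and in LGALS3 itself, followed by EIF5A at 2.17 to 2.26.

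EIF5A, a translation factor gene, held the window listed for most proteins, 7 of 9 (chr17:7311752-7311821, 70 nt). RBM10 had 214 IP and 10 input reads there at 3.31 to 4.31, EIF4B 112 and 14 at 3.87 to 4.46, and MBNL2 91 and 18 at 3.80 to 5.14. RNPS1 had 76 and 7 at 3.59 to 3.79, CPSF6 62 and 16 at 2.39 to 2.50, LGALS3 29 and 9 at 2.17 to 2.26, and CPSF5 38 and 17 at 1.46 to 2.58. The window was missing from the lists of GRB2 and RBM22. The 3 windows listed for 6 proteins lay in RBM26, an RNA-binding protein gene, POU4F1, a homeodomain transcription factor gene, and EEF2, the translocation factor of translation. All 3 were listed for CPSF6, EIF4B, MBNL2, RBM10, RBM22 and RNPS1. The EEF2 window was highest in the RNPS1 list, with 347 IP and 11 input reads and 4.43 to 4.74, and the POU4F1 window in the CPSF6 list, with 225 and 12 and 4.55 to 4.67.

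Some genes carried many RBM10 windows next to 3' splice sites. HUWE1, a very long ubiquitin ligase gene, had 44 such windows among its 110 RBM10 windows (40%), where RNPS1 had 21 of 189 and CPSF6 19 of 163. UBR4, another large ubiquitin ligase gene, had 25 of 48 for RBM10 (52.1%), 10 of 154 for RNPS1 and 8 of 126 for CPSF6. FANCD2, of the Fanconi anaemia repair pathway, had 22 of 40 for RBM10 (55.0%) and 6 each for RNPS1 and CPSF6. In all 3 genes, of these 3 proteins, RBM10 had the fewest windows in total and the most next to 3' splice sites. The genes were picked for the latter number and the RBM10 list is the shortest of the 3, so this order was partly fixed beforehand.

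For CPSF6 the leading genes were TPR, a nuclear pore protein, with 21 windows, HUWE1 with 19 and PRRC2B with 18. For RNPS1 they were HUWE1 with 21, and the DNA methyltransferase gene DNMT1 and TPR with 20 each. TPR had 6 RBM10 windows of the class. The maximum per gene was 6 for EIF4B (PRRC2A) and for MBNL2 (MBNL2 itself), 4 for GRB2 (DUXAP10, RCC2 and ZFYVE27 among others) and for LGALS3 (LGALS3 itself), 3 for CPSF5 (DDX17) and 2 for RBM22. RBM10 windows lay in 3863 genes, 1925 of them (49.8%) with a single window. CPSF6 windows lay in 3260 genes, those of RNPS1 in 2850, and those of EIF4B in 459.

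Transcripts of the splicing machinery itself were often among the hosts. After separating joint gene names, 34.9% of 11208 genes with any listed window held one of these windows for RBM10, 25.8% for RNPS1 and 29.5% for CPSF6. Of 26 genes for recognition of the branch point and 3' splice site, 20 did so for RBM10 (76.9%), 21 for RNPS1 and 21 for CPSF6 (80.8% each). Of 12 genes for 5' splice site recognition it was 10, 11 and 11, and of 32 genes of the tri-snRNP and catalytic spliceosome 17, 19 and 18. The shares were not adjusted for intron number or expression.

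SF3B3, a subunit of the branch-point binding complex, had 14 RBM10 windows with 895 IP and 54 input reads and a lower-replicate log2 enrichment between 1.52 and 5.16. RNPS1 had 6 windows there and CPSF6 5. U2AF2, the subunit that binds the pyrimidine tract, had 4 RBM10 windows with 722 IP and 22 input reads, between 2.35 and 3.93, and 5 RNPS1 windows with 392 and 23. SNRNP70, a U1 particle protein, had 5 RBM10 windows with 1100 IP and 60 input reads, between 1.31 and 3.78. LUC7L2, a U1-associated factor, had 4 with 269 and 61. Of the catalytic core, PRPF8 had 15 with 894 and 34 and EFTUD2 11 with 657 and 17.

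The regulators of splicing and RNA processing gave similar counts. Of 14 SR and TRA2 genes 9 held a window for RBM10, 8 for RNPS1 and 10 for CPSF6, and of 25 hnRNP and PTB genes 17, 17 and 16. Of 17 regulators of alternative exons it was 12, 14 and 10, of 20 cleavage and polyadenylation genes 11, 10 and 13, and of 18 genes of the exon junction complex and nonsense-mediated decay 11, 14 and 15. By IP reads in the RBM10 list, the leading genes were SRSF4 (4 windows, 612 IP and 52 input reads) and SRSF6 (2 windows, 231 and 24). PTBP1, the pyrimidine-tract binding repressor, had 4 windows with 701 and 23, and PCBP2, a poly(C)-binding protein, 7 with 695 and 41. SMG5, of nonsense-mediated decay, had 14 with 1033 and 25, and UPF1, its helicase, 5 with 623 and 8. CPSF4 had 3 with 319 and 3, and SYMPK, a scaffold of the cleavage complex, 4 with 286 and 11.

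Of 7 genes reported as RBM10 targets elsewhere and present in the tables, 6 held an RBM10 window of the class, 4 an RNPS1 window and 3 a CPSF6 window. Over all genes the shares were 34.9%, 25.8% and 29.5%, and 1 of the 6 is the RBM10 gene itself. NUMB, a Notch pathway regulator, had 2 RBM10 windows. The window at chr14:73277294-73277393 had 22 IP reads, no input read and 4.25 to 4.79, and that at chr14:73279425-73279524 had 34 IP and 3 input reads and 2.64 to 2.85. Neither was listed for another protein. EIF4H, a translation factor gene, also had 2 RBM10 windows, with 41 IP and 1 input read at 3.18 to 4.96 and 56 and 3 at 3.06 to 3.49.

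RBM5, a paralogue of RBM10, had 10 RBM10 windows, with lower-replicate enrichments between 1.48 and 3.33. TNRC6A, a gene of microRNA silencing, had 5 RBM10 windows. SMN2 had 1, with 35 IP and 4 input reads at 2.35 to 2.93, and RNPS1 listed it with 24 IP reads, no input read and 4.56 to 5.22. SMN1 is nearly identical to SMN2, so the gene assignment of these reads is uncertain. FAS held no RBM10 window of the class.

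In 5 lists the transcript of the assayed protein itself held windows of the class. For MBNL2, 6 windows of the MBNL2 gene held 21437 IP reads, 82.3% of the IP reads of all 265 windows, and 3609 input reads, 80.5% of the input. The window at chr13:97366359-97366458 alone had 14165 IP and 2531 input reads. In other tables the same window had 198 IP and 1 input read (LGALS3) and 136 IP and 20 input reads (RNPS1). Input of this gene was therefore far higher in the MBNL2 table than in the others, and the lower-replicate enrichment of its 6 windows ran from 1.90 to 7.10.

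For LGALS3, 4 of the 8 windows lay in the LGALS3 gene, with 384 IP reads (57.2%) and 140 input reads (89.2%), and no other list held them. For RNPS1, 5 windows of its own gene had 6162 IP reads (3.81%) and 416 input reads, with a median input of 73 per window against 1 over all RNPS1 windows of the class. RBM10 had 6 windows in its own gene with 1325 IP and 20 input reads, led by chrX:47176400-47176499 with 734 and 4 at 4.75 to 6.06. Median input there was 3.5 against 2 over the class. CPSF6 had 5 with 289 and 49, and a median input of 8 against 3. No window of the class in NUDT21 (which encodes CPSF5), EIF4B, GRB2 or RBM22 was listed for the protein of that gene. Whether a raised level of the RNA in those cells has a part in the high IP values was not tested. The EIF4B gene did hold 7 RBM10 windows, with 301 IP and 25 input reads.

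**Figure D5:**
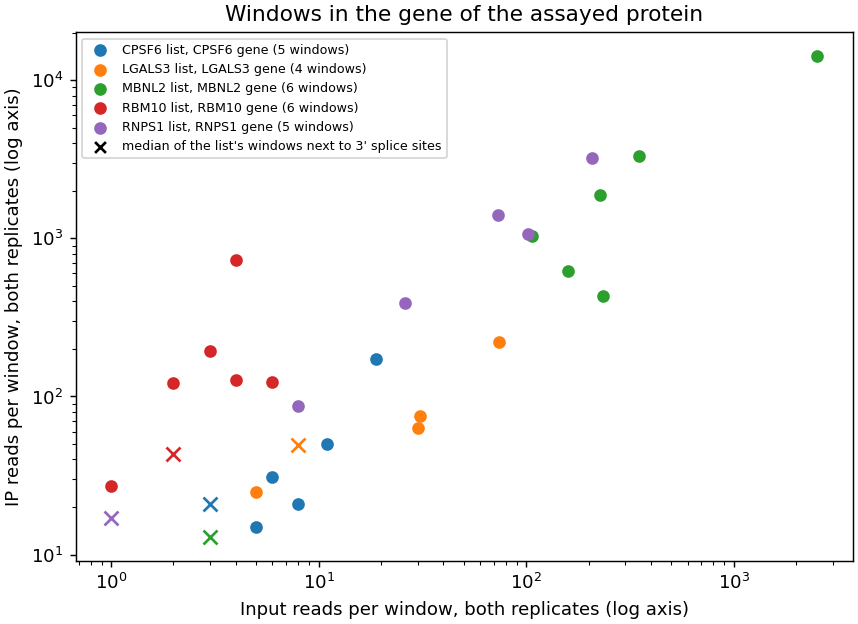
IP against input reads per window, both summed over 2 replicates and on log axes, for windows next to 3' splice sites in the gene of the assayed protein (points), with the median of all such windows of the list (crosses). Most points lie to the right of the cross of their list, with up to 2531 input reads in MBNL2, 19 in CPSF6 and 6 in RBM10.

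A few windows held a microRNA hairpin. In mirtrons, splicing rather than Drosha makes an end of the hairpin, so that it reaches the splice site. Of the 1560 RefSeq hairpins considered, on the same strand, some overlapped 18 distinct windows, 14 windows held a hairpin whole, and in 13 of these its 3' end was the last base before the exon. RBM10 listed 13 of the 18, CPSF6 8 and RNPS1 6, beside 55.7%, 38.8% and 39.6% of all windows of the class. The hairpins MIR6859-1 in WASH7P and MIR6859-2 in WASH9P are identical in sequence, so the assignment of their reads is uncertain. RBM10 and RNPS1 listed both windows, and CPSF6 that of WASH9P. The hairpins of 3 host genes are shown 5' to 3' because they end at the splice site, with the last AG in capitals.
MIR6747 in EEF1G, chr11:62567011-62567071, minus strand: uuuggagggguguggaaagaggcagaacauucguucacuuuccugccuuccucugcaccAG
MIR6755 in EED, chr11:86278333-86278398, plus strand: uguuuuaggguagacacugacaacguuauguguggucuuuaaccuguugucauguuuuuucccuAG
MIR6824 in SLC26A6, chr3:48633636-48633698, minus strand: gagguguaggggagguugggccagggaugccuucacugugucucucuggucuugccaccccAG

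The MIR6824 window was listed for 4 proteins, with 82 IP and 2 input reads for RBM10 (3.46 to 4.47), 54 and 7 for CPSF6 (2.11 to 3.41), 37 and 7 for RBM22 (1.84 to 2.69) and 37 and 1 for RNPS1 (3.30 to 5.29). The MIR6747 window, in the gene of an elongation factor subunit, had 49 IP and 2 input reads for RBM10 (2.75 to 4.13) and 43 and 1 for RNPS1 (3.78 to 5.76). The MIR6755 window, in a Polycomb gene, was listed for RBM10 alone, with 54 IP and 1 input read at 4.42 to 4.67. These reads are those of whole windows, and reads of the hairpin cannot be told apart from reads of the intron around it.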

How the data were processed

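The authors deposited 1 table of reproducibly enriched eCLIP windows per protein, on hg38, per the submitters' processing notes. The sources used here name no aligner, window caller or annotation release. The read counts are whole numbers that the authors summed over 2 replicates, so no count per library was used and no difference was tested. Per the file headers, the log2 enrichment is a log2 odds ratio, with its lower and higher value over replicates, computed by a model that the sources used here do not describe. The p-value and q-value per window and the number of replicates called, 2 throughout, are also the authors' deposited values, with q-values up to 0.200. The GC fraction was deposited per window and is printed as a percentage.

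Windows of the class were united by name in Python 3.11.15 with pandas 2.3.3 and scipy 1.17.1. The script was tested on simulated tables. Shares carry exact Clopper-Pearson intervals at 95%. Neighbours were listed windows of the same strand that abut without a gap. Sequences and gene spans come from RefSeq GRCh38.p14. Named are the 3 strongest windows per protein with at least 20 IP reads, at most 1 per gene, the 3 genes with most windows, up to 5 windows listed for most proteins, all listed reported RBM10 targets and assayed proteins, and 2 genes of each other list by RBM10 IP reads. The windows, gene lists and named sets were chosen with earlier results of these data known. Genes of the lists without a listed window, such as ESRP1 and BCL2L1, were left out of the counts. Alternatives were q no higher than 0.05 in both replicates, at least 20 IP reads, at least 1 input read, windows of at least 75 nt, genes counted once, any annotated feature type, and the higher replicate.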

Additional observations from a re-analysis of the deposited data

How the results depend on the processing

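No paired analysis was possible because the deposited tables combine both replicates of a protein and hold no column per library, and for the same reason neither replicate could be left out. RBM10 had the largest share of its list in the class under all 6 alternatives tried for that share. RNPS1 and CPSF6 changed places when windows without an input read were dropped (3.67% and 3.99%), with at least 20 IP reads (2.63% and 2.98%) and with genes counted once (29.0% and 34.2%). With q at most 0.05 in both replicates the share was 42.3% for RBM10, 3.22% for RNPS1, 3.11% for CPSF6, 0.616% for EIF4B, 0.122% for GRB2, 0.525% for MBNL2, 0.796% for RBM22, 0.0982% for CPSF5 and 1.81% for LGALS3. With at least 20 IP reads it was also 0.605% for EIF4B and 0.306% for MBNL2. With at least 1 input read it was 31.1% for RBM10 and 0.195% for GRB2. In windows of at least 75 nt it was 33.8% for RBM10, 6.001% for RNPS1, 4.99% for CPSF6, 0.925% for EIF4B and 0.721% for MBNL2. With genes counted once it was 75.8% for RBM10, 4.55% for EIF4B, 7.01% for GRB2, 3.37% for MBNL2, 4.20% for RBM22 and 0.869% for CPSF5. With any annotated feature type it was 44.3% for RBM10, 7.73% for RNPS1, 6.78% for CPSF6, 3.30% for EIF4B, 0.214% for GRB2, 2.44% for MBNL2, 6.76% for RBM22, 1.14% for CPSF5 and 2.69% for LGALS3.

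The median log2 enrichment in the higher replicate was 4.59 for RBM10, 4.05 for RNPS1, 3.65 for CPSF6, 3.70 for EIF4B, 3.92 for GRB2, 3.84 for MBNL2, 2.49 for RBM22, 3.38 for CPSF5 and 2.97 for LGALS3. With q at most 0.05 the lower-replicate median was 3.09 for CPSF6, 3.41 for GRB2, 3.59 for MBNL2, 2.45 for RBM22, 3.13 for CPSF5 and 3.44 for LGALS3. The number of distinct windows fell to 7884 with q at most 0.05. Windows in a single list made up 78.5% with q at most 0.05, 76.4% with at least 20 IP reads and 69.1% with at least 1 input read.

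The shares of windows in common moved with each threshold. With q at most 0.05, RNPS1 listed 17.0% and CPSF6 12.0% of the RBM10 windows, RBM10 20.9% and CPSF6 32.6% of the RNPS1 windows, and RBM10 19.1% and RNPS1 42.2% of the CPSF6 windows. With at least 20 IP reads, in the same order, the shares were 14.1%, 17.7%, 46.4%, 51.6%, 45.2% and 39.9%. With at least 1 input read RNPS1 listed 24.8% and CPSF6 26.3% of the RBM10 windows, RBM10 40.1% and CPSF6 48.0% of the RNPS1 windows, and RNPS1 38.3% of the CPSF6 windows. In windows of at least 75 nt RBM10 listed 39.4% of the RNPS1 windows. The alternatives for abutting windows were chosen after seeing the data. With q at most 0.05 an exon-side window was listed for 74.3% of RNPS1, 56.1% of CPSF6, 39.0% of MBNL2 and 0.762% of RBM10 windows, and with at least 20 IP reads for 62.4% of CPSF6 and 62.3% of MBNL2 windows. The cause of these shifts was not tested. Depth per library is unknown, windows with few or no input reads have imprecise ratios, and neither antibody nor expression could be taken into account.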
